A study of Homo sapiens with 6 samples.

Results

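The nuclear genes for subunits of respiratory complexes II, III, IV and V were compared between sphere and parental cultures of CAL-27, a human tumour line established from a tongue squamous carcinoma. Members were taken by gene symbol: SDHA to SDHD for complex II, symbols starting with UQCR for complex III, COX4 to COX8 for complex IV and ATP5 for complex V. The rule matched 45 of the 17110 genes in the deposited table, 4 in complex II, 9 in complex III, 12 in complex IV and 20 in complex V. The sphere group (3 libraries) consists of CAL-27 cells from a suspension culture, which the submitters used to obtain cancer stem cells. The parental group (3 libraries) consists of CAL-27 cells grown attached. Both groups carry the same cell line label and no other treatment is labelled. The labels give neither the time in suspension nor the medium. Whether the 3 libraries of a group stand for separate cultures is not labelled. The p-values therefore refer to the spread among these libraries alone, and that spread may be technical.

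The respiratory chain sits in the inner mitochondrial membrane. Complex II (succinate dehydrogenase) passes electrons from the citric acid cycle to ubiquinone, complex III passes them on to cytochrome c, and complex IV (cytochrome c oxidase) passes them to oxygen. Complexes III and IV pump protons while they do so, and complex V (ATP synthase) uses the proton gradient to make ATP. Complex II is made from nuclear genes alone, while the others also contain proteins encoded by mitochondrial DNA, which were not analysed here.

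Values were TPM, transcript abundance scaled by transcript length and to a fixed total per library. Read depth cannot be recovered from TPM, so it is unknown, and precision rests on the spread between 3 libraries. On log2(TPM + 1), libraries correlated across tested genes at r of at least 0.995 within a group and at most 0.842 between groups (genes are not independent replicates). Of 6 squamous epithelial markers all were present, with a summed level of 23863 to 23941 TPM in sphere libraries and 1348 to 1411 TPM in parental libraries. KRT14, a keratin of basal epithelium, was at 7705 ± 79.5 TPM in sphere libraries and 4.69 ± 0.21 TPM in parental libraries (SD, n = 3 each), so this defining marker was nearly absent from the parental group. The keratins KRT5, KRT14 and KRT17 carried the sum and rose with TP63 and CDH1, while EPCAM fell and averaged 159.8 ± 12.8 TPM in sphere libraries and 311 ± 9.04 TPM in parental libraries. The 6 fibroblast markers measured summed to 15.6 to 17.2 TPM in sphere and 12.0 to 12.4 TPM in parental libraries, with COL3A1 listed at 0 in each parental library. COL1A1 carried the sum and averaged 16.1 TPM in sphere and 8.15 TPM in parental libraries. PDGFRB went the other way, averaging 0.087 TPM in sphere and 2.63 TPM in parental libraries. COL1A2, LUM and PDGFRA also averaged lower in sphere libraries, each below 1 TPM. The 4 endothelial markers measured summed to 10.6 to 12.3 TPM in sphere and 20.5 to 21.6 TPM in parental libraries. CDH5 fell, averaging 0.01 TPM in sphere and 11.0 TPM in parental libraries. EGFL7 rose, averaging 11.5 TPM in sphere and 9.70 TPM in parental libraries, while PECAM1 and VWF were at no more than 0.21 TPM in any library. The 6 leukocyte markers reported summed to 176 to 182 TPM in sphere and 48.3 to 53.0 TPM in parental libraries, nearly all of it CD68, a lysosomal protein, while PTPRC and CD3E were listed at 0 in each parental library and at no more than 0.20 TPM in any sphere library. The part of these differences in the results for the subunits was not tested. In bulk RNA, fewer cells of a type and less RNA per cell cannot be told apart.

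Subunit transcripts of all 4 complexes were mostly lower in sphere libraries. Of 42 members tested (mean of at least 1 TPM), 34 fell, 5 rose and 3 did not pass, in limma with Benjamini-Hochberg adjustment over all 12261 tested genes and a threshold of 0.05. The members that fell were 81.0% and those that rose 11.9%, while of all tested genes 48.2% fell and 35.1% rose (83.4% in either direction). The median log2 difference (sphere minus parental, on log2(TPM + 1), which understates the change of low genes) was -0.58 for the members and -0.13 for all tested genes. The groups did not overlap for 39 of the 42 members (92.9%), where the share among all tested genes was 84.6%. The sphere libraries lay wholly below in 35 members and wholly above in 4, against 48.9% and 35.7% of all tested genes. A fall of at least 1 log2 unit was found for 10 members (23.8%) and for 14.7% of tested genes. With median-of-ratios scaling, which shifted the median of all tested genes by 0.16 to 0.030, 32 members fell (76.2%, against 40% of tested genes) and 6 rose (14.3%, against 43.0%). Under that scaling 83.0% of tested genes passed in either direction.

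**Figure D1:**
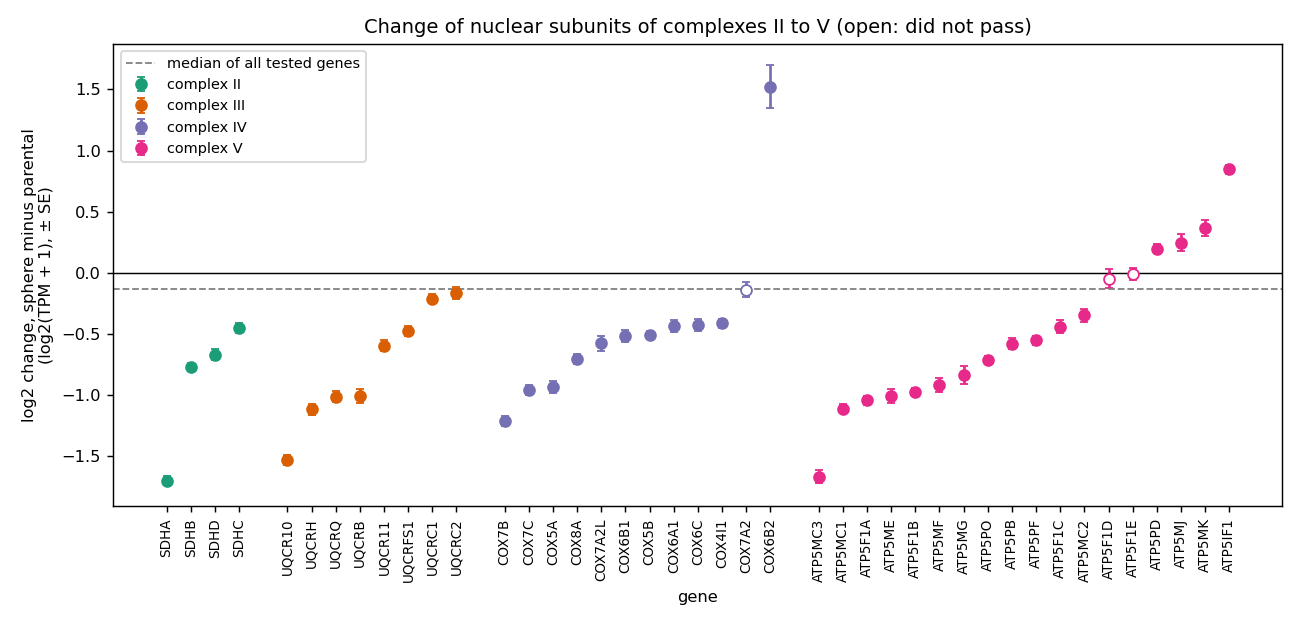
Log2 difference of each tested subunit gene (sphere minus parental, log2(TPM + 1), error bars are the SE from limma, n = 3 libraries per group), grouped by complex; open circles did not pass the test and the dashed line is the median of all tested genes (-0.13). All complex II and III genes lie below 0, while COX6B2 (1.52) and ATP5IF1 (0.84) lie highest.

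Summed over its members, complex II came to 521 ± 11.1 TPM in sphere libraries and 1017 ± 9.87 TPM in parental libraries (SD, n = 3 each), so the sphere sum was 51.2% of the parental sum. Complex III came to 1209 ± 26.6 TPM in sphere libraries and 2204 ± 50.2 TPM in parental libraries, or 54.9%. Complex IV came to 5986 ± 131 TPM in sphere libraries and 8732 ± 194 TPM in parental libraries, or 68.6%. Complex V came to 5835 ± 109 TPM in sphere libraries and 8254 ± 169 TPM in parental libraries, or 70.7%. Relative to the parental sum, complexes II and III were thus lower than complexes IV and V, and in each complex the 3 sphere libraries lay below the 3 parental ones. Single genes weigh heavily in the sums of complexes II and III. SDHA averaged 119 TPM in sphere and 389 TPM in parental libraries, and UQCRH 586 and 1277 TPM. The complex III sum leaves out its subunit CYC1, which averaged 235 TPM in sphere and 186 TPM in parental libraries. Whether the ranking holds with other choices of genes was not tested. All 45 members together took 1.36% of the TPM total in sphere and 2.02% in parental libraries.

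In complex II all 4 subunit genes fell (against 48.2% of all tested genes), SDHA most. SDHA (Entrez Gene 6389), the flavoprotein that oxidises succinate, had 121, 116 and 119 TPM in sphere libraries, against 385, 390.2 and 393 TPM in parental libraries. That was 30.5% of the parental level by the ratio of means, with a log2 difference of -1.70 ± 0.03 (SE, adjusted p = 9.8e-11). SDHB (Entrez Gene 6390), the iron-sulfur subunit that receives those electrons, had 175, 171 and 179 TPM in sphere libraries, against 305, 301 and 294 TPM in parental libraries, and its log2 difference was -0.77 ± 0.04 (SE, adjusted p = 2.0e-08). Both catalytic subunits were therefore lower in each sphere library than in any parental library, as were 48.9% of all tested genes. The membrane anchor genes were SDHC and SDHD, which hold the enzyme in the membrane and form its ubiquinone site. SDHC had 152, 159 and 162 TPM in sphere libraries, against 214, 222 and 214 TPM in parental libraries. SDHD had 66.7, 68.9 and 73.4 TPM in sphere libraries, against 112, 115 and 108 TPM in parental libraries. Their log2 differences were -0.46 ± 0.04 and -0.67 ± 0.05 (SE, adjusted p = 2.1e-06 and 5.0e-07), so SDHC was the least lowered of the 4.

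The order of the 4 transcripts differed between the groups. SDHA was the most abundant complex II transcript in each parental library, and SDHB was the most abundant in each sphere library. The ratio of SDHA to SDHB within a library, which library scaling cannot change, was 0.691, 0.680 and 0.667 in sphere libraries, against 1.26, 1.3 and 1.34 in parental libraries. The ratio of SDHC to SDHB differed the opposite way and was 0.864, 0.932 and 0.907 in sphere libraries, against 0.701, 0.737 and 0.728 in parental libraries. Neither ratio overlapped between groups (no test was made of ratios). SDHA lies on chromosome 5 beside genes that were also lower: its 22 neighbours among tested genes, in the order of the RefSeq table, had a median log2 difference of -1.03. Up to 20 were taken on each side, but SDHA lies near the chromosome end with only 2 tested genes before it and 20 after it. Up to 10 or 40 on each side gave -0.94 (12 genes) and -1.08 (42 genes). SDHA has 4 named pseudogenes in the RefSeq table, SDHB 1, SDHC 5 and SDHD 7, so the division of reads is uncertain for all 4 genes and their ratios.

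In complex III all 8 tested genes fell (against 48.2% of all tested genes), from the small subunits with the largest differences to the core proteins with the smallest. UQCR10 (Entrez Gene 29796), a small subunit of the membrane part, had 68.3, 70.6 and 67.3 TPM in sphere libraries, against 198, 208 and 198 TPM in parental libraries, with a log2 difference of -1.54 ± 0.04 (SE, adjusted p = 4.0e-10). UQCRH (Entrez Gene 7388), the hinge protein near cytochrome c1, had 575, 611 and 572 TPM in sphere libraries, against 1264, 1233 and 1335 TPM in parental libraries, with a log2 difference of -1.12 ± 0.04 (SE, adjusted p = 4.8e-09). Both were lower than parental in each sphere library, as were 48.9% of all tested genes, and UQCR10 reached 34.1% of the parental mean. UQCRQ (Entrez Gene 27089), another small membrane subunit, had 48.5, 47.5 and 47.7 TPM in sphere libraries, against 94.1, 97.1 and 103 TPM in parental libraries, with a log2 difference of -1.02 ± 0.04 (SE, adjusted p = 1.3e-08). UQCRB, which helps form the ubiquinone-binding region, was the least abundant of the tested members of this complex, at 12.0 ± 0.22 TPM in sphere libraries and 25.2 ± 1.16 TPM in parental libraries (SD, n = 3 each). Its log2 difference was -1.01 ± 0.06 (SE, adjusted p = 8.2e-08). UQCR11 averaged 76.8 ± 2.38 TPM in sphere libraries and 117 ± 3.78 TPM in parental libraries, and UQCRFS1, the Rieske iron-sulfur protein that takes electrons from ubiquinol, averaged 40.7 ± 1.02 TPM in sphere libraries and 57.2 ± 0.57 TPM in parental libraries, with log2 differences of -0.6 and -0.48.

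The core proteins UQCRC1 and UQCRC2, which face the matrix and carry no redox group, differed least. UQCRC1 had 171, 160.3 and 166 TPM in sphere libraries, against 196, 189.7 and 193 TPM in parental libraries, a log2 difference of -0.21 ± 0.04 (SE, adjusted p = 4.5e-04). UQCRC2 had 223, 210.2 and 197 TPM in sphere libraries, against 229, 239.9 and 238 TPM in parental libraries, a log2 difference of -0.17 ± 0.05 (SE, adjusted p = 0.00894). Both calls were lost with median-of-ratios scaling, where the log2 differences were -0.036 and 0.010 (adjusted p = 0.394 and 0.862). The ratio of UQCRC1 to UQCRC2 overlapped between groups, at 0.770, 0.763 and 0.846 in sphere libraries, against 0.854, 0.791 and 0.811 in parental libraries. By contrast the ratio of UQCR10 to UQCRC1 was 0.398, 0.440 and 0.405 in sphere libraries, against 1.01, 1.1 and 1.03 in parental libraries, with no overlap. UQCRHL, a retrocopy that is close in sequence to UQCRH, had 0.48, 0.49 and 1.45 TPM in sphere libraries, while all 3 parental libraries list it at 0. It stayed below the filter, and reads of the pair may not be told apart.

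CYC1, cytochrome c1, is also a subunit of complex III but does not carry a UQCR symbol. It had 239, 231 and 235 TPM in sphere libraries, against 193, 193 and 173 TPM in parental libraries, and rose with a log2 difference of 0.33 ± 0.05 (SE, adjusted p = 1.0e-04), the opposite direction to the 8 UQCR genes. It lies on chromosome 8, and the 20 tested genes on each side of it had a median log2 difference of 1.02.

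In complex IV, 10 of 12 tested genes fell (83.3%, against 48.2% of all tested genes), COX6B2 rose and COX7A2 did not pass. The subunits that surround the catalytic core are all of nuclear origin. COX7B (Entrez Gene 1349), a small membrane subunit encoded on the X chromosome, had 29.9, 29.8 and 29.0 TPM in sphere libraries, against 69.7, 68.3 and 71.6 TPM in parental libraries, with a log2 difference of -1.21 ± 0.04 (SE, adjusted p = 3.1e-09). COX7C (Entrez Gene 1350) had 445, 410.1 and 446 TPM in sphere libraries, against 840.4, 828 and 873 TPM in parental libraries, with a log2 difference of -0.96 ± 0.04 (SE, adjusted p = 1.5e-08). COX5A (Entrez Gene 9377), a matrix-facing subunit, had 112, 112 and 108 TPM in sphere libraries, against 209.8, 202 and 227 TPM in parental libraries, with a log2 difference of -0.94 ± 0.05 (SE, adjusted p = 4.1e-08). These were the 3 largest falls. None of them overlapped between groups, which was also true of all 12 tested genes of this complex and of 84.6% of all tested genes.

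The other subunits that fell had smaller differences. COX8A had the highest level of all members in both groups, at 1456, 1479 and 1469 TPM in sphere libraries, against 2441, 2506 and 2259 TPM in parental libraries (log2 difference -0.71 ± 0.04, SE, adjusted p = 1.3e-07). COX4I1, the ubiquitous form of the subunit through which ATP inhibits the enzyme, had 840.3, 885 and 835 TPM in sphere libraries, against 1125, 1128 and 1164 TPM in parental libraries (log2 difference -0.42 ± 0.04, SE, adjusted p = 2.1e-06). COX6A1, the form found in most tissues outside heart and skeletal muscle, had 1092, 993 and 982 TPM in sphere libraries, against 1375, 1439 and 1336 TPM in parental libraries (log2 difference -0.44 ± 0.05, SE, adjusted p = 1.4e-05). None of these 3 overlapped between groups, like 84.6% of all tested genes. COX5B and COX6C averaged 253 ± 7.43 TPM in sphere libraries and 362 ± 3.79 TPM in parental libraries, and 260.2 ± 2.61 TPM in sphere libraries and 351 ± 22.7 TPM in parental libraries, in that order, with log2 differences of -0.51 and -0.43. COX7A2L, a COX7A-related protein that joins complexes III and IV in supercomplexes, fell as well, averaging 74.3 ± 6.0 TPM in sphere libraries and 112 ± 5.98 TPM in parental libraries (SD), with a log2 difference of -0.58 ± 0.06 (SE, adjusted p = 1.3e-05).

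COX7A2, the COX7A form of most tissues, had 816, 840.2 and 751 TPM in sphere libraries, against 842, 971 and 848 TPM in parental libraries. The groups did not overlap, but parental replicate 2 stood above the other 2, and the log2 difference of -0.14 ± 0.06 did not pass (SE, adjusted p = 0.0539). Its sign turned with median-of-ratios scaling (0.035, adjusted p = 0.612), and over single-library omissions its adjusted p ran between 0.0327 and 0.198. It passed without sphere replicate 2 (adjusted p = 0.0455), without parental replicate 1 (0.0327) and without parental replicate 3 (0.0381). It also passed with a robust prior (0.0488), with library weights (0.0353), with a filter of 5 TPM (0.0474) and with the replicate block (0.0128).

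The 2 COX6B isoforms went in opposite directions. COX6B1, the common form at the side where cytochrome c docks, had 707, 679 and 632 TPM in sphere libraries, against 937, 965 and 991 TPM in parental libraries, a log2 difference of -0.52 ± 0.05 (SE, adjusted p = 2.6e-06). COX6B2 (Entrez Gene 125965), known as the testis form, had 5.18, 4.88 and 6.65 TPM in sphere libraries, against 1.48, 0.71 and 1.76 TPM in parental libraries, with a log2 difference of 1.52 ± 0.18 (SE, adjusted p = 2.2e-05). COX6B2 made up only 0.727, 0.713 and 1.04 percent of the COX6B sum in sphere libraries, against 0.158, 0.074 and 0.177 percent in parental libraries. The share was higher in each sphere library than in any parental library, yet stayed near 1 percent or under. The alternative isoforms of COX4, COX6A, COX7A, COX7B and COX8 were not analysed here.

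**Figure D2:**
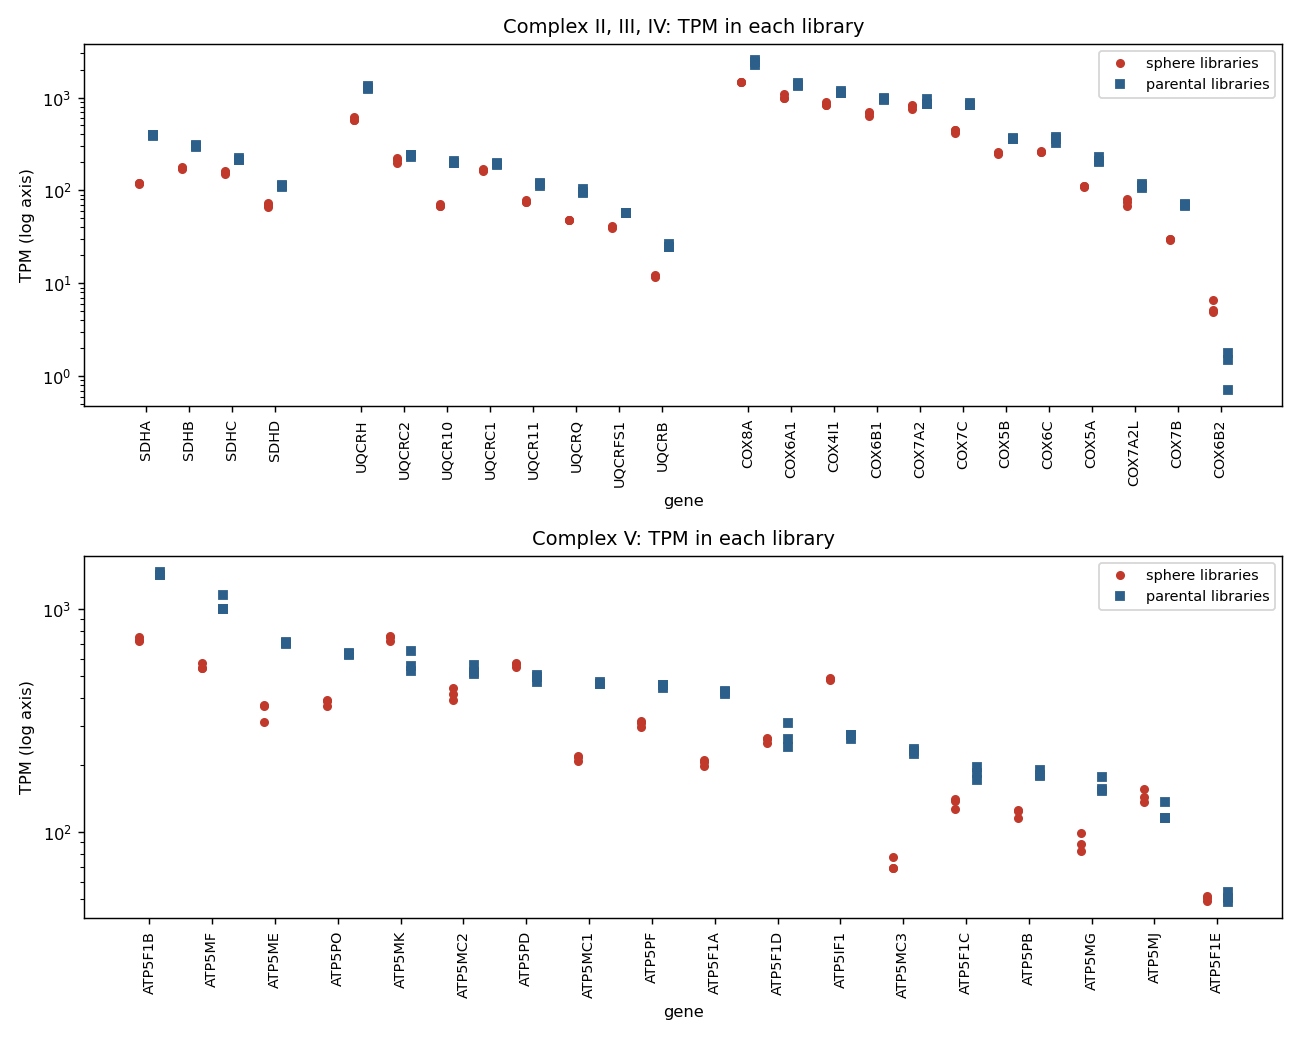
TPM of each tested subunit gene in each library (log axis), with sphere libraries as circles left of parental libraries as squares, complexes II to IV above and complex V below. Circles lie below squares for most genes, and above them for COX6B2, ATP5IF1, ATP5MK and ATP5PD.

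Complex V gave a mixed picture, with 12 of 18 tested genes lower, 4 higher and 2 that did not pass. Its shares were 66.7% lower and 22.2% higher, against 48.2% and 35.1% of all tested genes. The catalytic head was lower in its main subunits. ATP5F1B (Entrez Gene 506), the beta subunit that carries the catalytic sites, had 748, 728 and 724 TPM in sphere libraries, against 1430.3, 1465 and 1432 TPM in parental libraries, with a log2 difference of -0.98 ± 0.03 (SE, adjusted p = 1.9e-09). ATP5F1A (Entrez Gene 498), the alpha subunit, had 210.3, 198 and 207 TPM in sphere libraries, against 427, 416 and 432 TPM in parental libraries, with a log2 difference of -1.05 ± 0.04 (SE, adjusted p = 3.0e-09). The alpha to beta ratio overlapped between groups, at 0.281, 0.272 and 0.286 in sphere libraries, against 0.299, 0.284 and 0.302 in parental libraries. ATP5F1C, the gamma subunit that rotates inside the head, averaged 135 ± 7.23 TPM in sphere libraries and 184 ± 11.8 TPM in parental libraries (SD, n = 3 each), a smaller fall with a log2 difference of -0.44 ± 0.06 (SE, adjusted p = 4.1e-05).

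The other 2 subunits of the central stalk did not pass. ATP5F1D, the delta subunit, had 263, 250.5 and 266 TPM in sphere libraries, against 309, 263 and 240.3 TPM in parental libraries, where parental replicate 1 lay highest of all 6 libraries (log2 difference -0.05 ± 0.08, SE, adjusted p = 0.549). ATP5F1E, the epsilon subunit, had 51.9, 50.8 and 49.2 TPM in sphere libraries, against 53.8, 48.8 and 50.6 TPM in parental libraries (log2 difference -0.01 ± 0.05, SE, adjusted p = 0.859). Both overlapped between groups. With median-of-ratios scaling ATP5F1E rose (0.16, adjusted p = 0.0128) and ATP5F1D was at 0.13 (adjusted p = 0.149). Set against the beta subunit of the same library, ATP5F1D was at 0.352, 0.344 and 0.367 in sphere libraries, against 0.216, 0.179 and 0.168 in parental libraries, with no overlap. ATP5F1E lies on chromosome 20, where its 40 neighbours had a median of 0.41.

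The c-ring, the rotor that proton flow turns, is encoded by 3 genes whose mature proteins are identical and whose targeting sequences differ. All 3 fell, but unequally. ATP5MC3 (Entrez Gene 518) had 77.5, 69.3 and 68.9 TPM in sphere libraries, against 237, 225 and 232 TPM in parental libraries, with a log2 difference of -1.67 ± 0.05 (SE, adjusted p = 1.2e-09). ATP5MC1 (Entrez Gene 516) had 217, 208 and 219.9 TPM in sphere libraries, against 474, 463 and 462 TPM in parental libraries, with a log2 difference of -1.12 ± 0.04 (SE, adjusted p = 1.6e-09). ATP5MC2 (Entrez Gene 517) had 415, 445 and 393 TPM in sphere libraries, against 521, 511 and 564 TPM in parental libraries, with a log2 difference of -0.35 ± 0.05 (SE, adjusted p = 1.6e-04). The makeup of the c-ring transcripts therefore differed between the groups. ATP5MC2 held 58.5, 61.6 and 57.6 percent of the summed ATP5MC TPM in sphere libraries, against 42.3, 42.6 and 44.8 percent in parental libraries. ATP5MC3 held 10.9, 9.6 and 10.1 percent in sphere libraries, against 19.2, 18.8 and 18.4 percent in parental libraries, and ATP5MC1 held 30.5, 28.8 and 32.2 percent in sphere libraries, against 38.5, 38.6 and 36.7 percent in parental libraries. No share overlapped between groups. ATP5MC1 has 8 and ATP5MC2 has 5 named pseudogenes in the RefSeq table, ATP5MC3 none.

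The peripheral stalk, which keeps the head from turning, divided as well. ATP5PO, ATP5PB and ATP5PF fell, with log2 differences of -0.72 ± 0.03, -0.58 ± 0.04 and -0.56 ± 0.04 (SE) and an adjusted p of at most 7.6e-07. ATP5PO, the subunit that ties the stalk to the head, averaged 383 ± 12.0 TPM in sphere libraries and 629.6 ± 4.61 TPM in parental libraries (SD, n = 3 each). ATP5PD (Entrez Gene 10476), the d subunit of the same stalk, had 575, 569 and 552 TPM in sphere libraries, against 498, 507 and 474 TPM in parental libraries, and rose with a log2 difference of 0.20 ± 0.04 (SE, adjusted p = 6.8e-04). The ratio of ATP5PD to ATP5PO was 1.47, 1.46 and 1.5 in sphere libraries, against 0.796, 0.808 and 0.747 in parental libraries, so that ATP5PD was the more abundant of the 2 in each sphere library and the less abundant in each parental library.

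Of the 5 small membrane subunits tested, 3 fell (60%, against 48.2% of all tested genes) and 2 rose (40%, against 35.1%). ATP5ME (Entrez Gene 521), the e subunit at the dimer interface, had 367, 371 and 313 TPM in sphere libraries, against 703, 701 and 712 TPM in parental libraries, with a log2 difference of -1.01 ± 0.06 (SE, adjusted p = 1.4e-07). ATP5MF and ATP5MG, the f and g subunits, averaged 557 ± 17.6 TPM in sphere libraries and 1056 ± 90.8 TPM in parental libraries, and 90.1 ± 8.40 TPM in sphere libraries and 162 ± 13.0 TPM in parental libraries, with log2 differences of -0.92 and -0.84. ATP5MK (Entrez Gene 84833), also known as DAPIT, had 750.3, 758 and 718 TPM in sphere libraries, against 554, 652 and 529 TPM in parental libraries, and rose with a log2 difference of 0.37 ± 0.07 (SE, adjusted p = 6.8e-04). ATP5MJ (Entrez Gene 9556), the 6.8 kDa proteolipid, had 137, 143 and 157 TPM in sphere libraries, against 116, 137 and 116 TPM in parental libraries, and rose with a log2 difference of 0.25 ± 0.07 (SE, adjusted p = 0.0105). Both associate with the membrane part of the enzyme and neither takes part in catalysis. Sphere replicate 1 of ATP5MJ lay just under parental replicate 2, so its groups overlapped. ATP5MJ lies on chromosome 14 where its 39 neighbours had a median log2 difference of 0.91, so it was higher in sphere libraries by less than the genes around it. ATP5MGL and the read-through gene ATP5MF-PTCD1 stayed below the filter, at no more than 0.21 and 0.82 TPM in any library.

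ATP5IF1 (Entrez Gene 93974), the inhibitor protein that blocks ATP hydrolysis by the synthase when the proton gradient fails, had the largest rise within complex V. It had 484, 490.4 and 481 TPM in sphere libraries, against 262, 274 and 273 TPM in parental libraries, a level 1.80 times as high by the ratio of means, with a log2 difference of 0.84 ± 0.03 (SE, adjusted p = 7.8e-09). Relative to the beta subunit it binds, ATP5IF1 was at 0.648, 0.673 and 0.665 in sphere libraries, against 0.183, 0.187 and 0.191 in parental libraries. The ratio was higher in each sphere library than in any parental library. Its 40 neighbours on chromosome 1 had a median log2 difference of -0.24, where the median of all tested genes was -0.13.

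**Figure D3:**
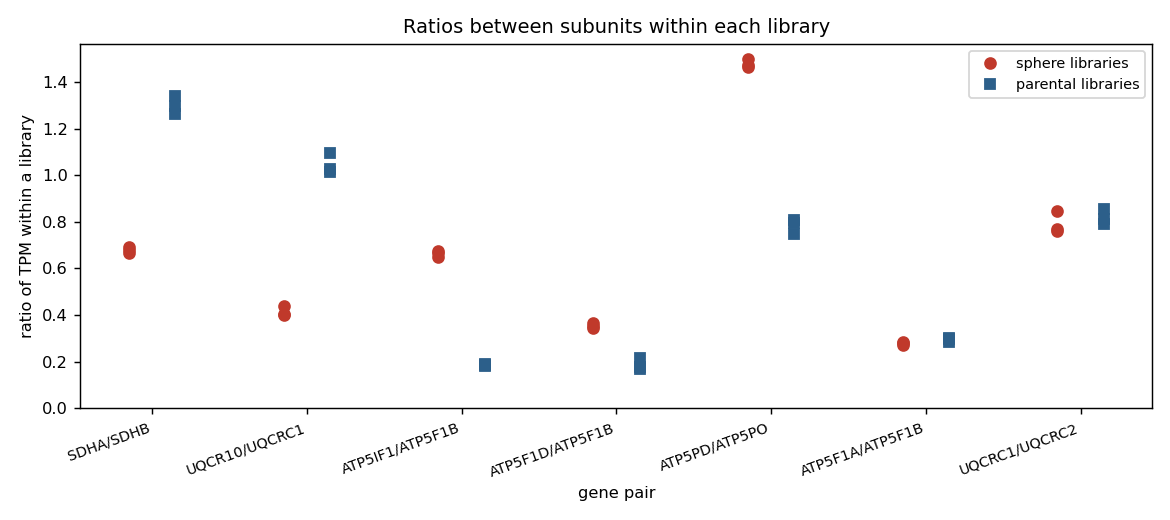
Ratio of the TPM of 2 subunit genes within each library, with sphere libraries as circles left of parental libraries as squares. SDHA/SDHB and UQCR10/UQCRC1 are lower in each sphere library, the ratios led by ATP5IF1, ATP5F1D and ATP5PD are higher, and ATP5F1A/ATP5F1B and UQCRC1/UQCRC2 overlap.

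The start regions of members that fell and rose are shown because nuclear respiratory factor 1 and factors of the ETS family (among them GABP) are known to bind many respiratory chain promoters. The sequences are the 250 bases before the start site, 5′ to 3′ on the gene's strand, from RefSeq on GRCh38.p14, with matches to GCGCANGCG (an NRF1 motif, either strand) in capitals. SDHA is at chr5:218070-218319 on the plus strand, ATP5ME at chr4:674277-674526 on the minus strand, ATP5MJ at chr14:103921530-103921779 on the minus strand and ATP5IF1 at chr1:28235874-28236123 on the plus strand.
SDHA: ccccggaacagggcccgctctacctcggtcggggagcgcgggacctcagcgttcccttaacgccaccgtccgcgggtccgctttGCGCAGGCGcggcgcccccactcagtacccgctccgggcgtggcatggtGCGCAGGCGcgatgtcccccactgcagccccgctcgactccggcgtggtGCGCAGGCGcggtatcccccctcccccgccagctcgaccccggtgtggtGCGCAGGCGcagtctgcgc
ATP5ME: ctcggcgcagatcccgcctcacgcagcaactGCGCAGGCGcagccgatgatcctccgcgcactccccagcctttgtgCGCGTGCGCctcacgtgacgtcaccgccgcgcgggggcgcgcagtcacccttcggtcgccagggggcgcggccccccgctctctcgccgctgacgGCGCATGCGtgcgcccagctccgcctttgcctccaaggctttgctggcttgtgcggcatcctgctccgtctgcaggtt
ATP5MJ: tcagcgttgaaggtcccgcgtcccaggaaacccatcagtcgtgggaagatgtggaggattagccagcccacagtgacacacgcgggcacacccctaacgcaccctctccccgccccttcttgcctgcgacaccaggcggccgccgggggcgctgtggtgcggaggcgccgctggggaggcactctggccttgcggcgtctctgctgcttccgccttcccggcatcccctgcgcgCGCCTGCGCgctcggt
ATP5IF1: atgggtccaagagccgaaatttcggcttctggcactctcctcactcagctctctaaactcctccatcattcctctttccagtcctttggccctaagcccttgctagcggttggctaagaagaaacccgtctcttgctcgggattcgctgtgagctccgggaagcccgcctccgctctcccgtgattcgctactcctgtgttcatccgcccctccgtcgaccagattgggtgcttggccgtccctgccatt
SDHA, which fell most, held 4 matches, ATP5ME, which fell, 3 matches, ATP5MJ, which rose, 1 match and ATP5IF1, which rose, 0 matches. These windows are examples, and their order does not hold over the members. UQCR10 and COX7B held 0 matches with log2 differences of -1.54 and -1.21, while UQCRC1 held 2 matches with -0.21. Counts over all members with a window are given below, and a relation between matches and change was not tested.

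The RefSeq table gave 41 start windows for 35 of the 45 members. A match to GCGCANGCG stood in 29.3% of these windows, against 6.56% of all 35116 windows and 11.2% of the windows of tested genes. CCGGAAGT, the ETS core searched on both strands, stood in 24.4% of the members' windows, against 3.42% of all windows and 6.17% of those of tested genes. AAGATGGC, a YY1 motif on either strand, stood in 4.88%, against 1.36% and 1.75%, and its matches were both in windows of 1 gene, ATP5PF. No GCGCANGCG match shared bases with a match to the other 2 motifs in these windows. Of the 12 members with GCGCANGCG 11 fell and 1 rose, of the 10 with CCGGAAGT 8 fell and 2 rose, and of the 16 with none of the 3 motifs 12 fell, 2 rose and 2 did not pass. Of all 42 tested members 81.0% fell and 11.9% rose, against 48.2% and 35.1% of all tested genes. How tested genes with each motif moved was not analysed. Members moved in both directions with and without each of the first 2 motifs, and a match is a description, not a binding site.

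Beyond single cases, the members were set against the genes around them on the chromosome. All 42 tested members could be placed, and their log2 difference and the median of their neighbours (up to 20 tested genes on each side) had a Pearson r of 0.41, a description over genes that share the same 6 libraries. With few tested genes between them and a chromosome end, 4 members had fewer than 40 neighbours: SDHA had 22, ATP5ME 25, ATP5PF 36 and ATP5MJ 39. With up to 20 genes on each side, only SDHA had a neighbour median below -0.5. With up to 10 on each side, SDHA (-0.94), UQCR10 (-0.87), ATP5F1C (-0.66) and COX6A1 (-0.52) did. ATP5MC3 fell by 1.67 on the log2 scale beside neighbours at -0.12, and ATP5ME fell by 1.01 beside neighbours at 0.15, or 0.64 with up to 10 genes on each side. UQCR10, on chromosome 22, fell by 1.54 beside neighbours at -0.26, or -0.87 when 10 genes on each side were taken. Between the mean log2(TPM + 1) of a member and its log2 difference r was -0.19, again a description over these genes.

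**Figure D4:**
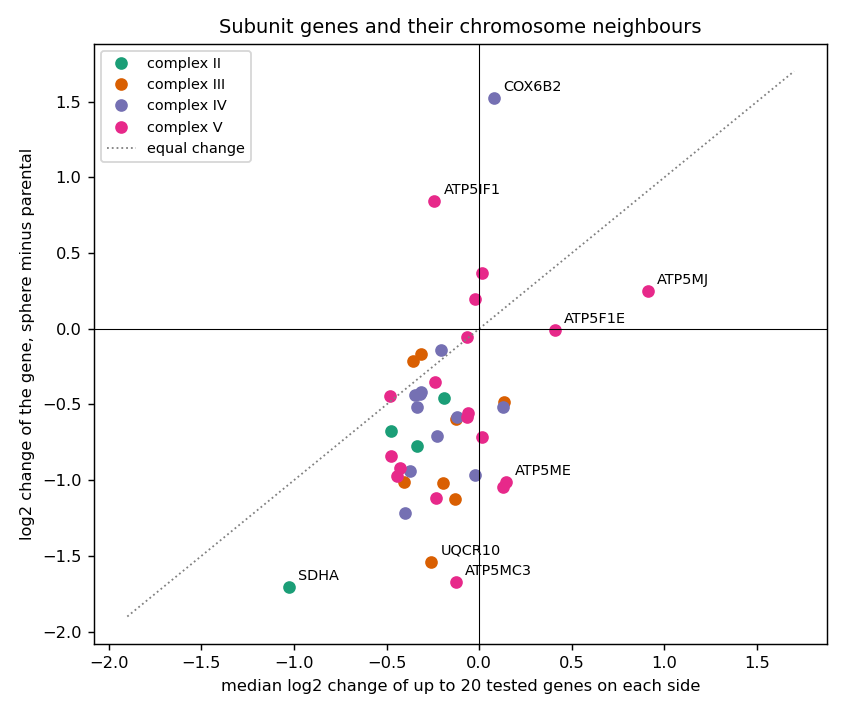
Log2 difference of each tested subunit gene (sphere minus parental) against the median log2 difference of up to 20 tested genes on each side of it on its chromosome (22 genes in all for SDHA and 39 for ATP5MJ); the dotted line marks equal change. SDHA has the lowest neighbour median (-1.03) and ATP5MJ the highest (0.91), while ATP5MC3, UQCR10, ATP5IF1 and COX6B2 lie far from the line.

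Many members have processed pseudogenes that can take or lend short reads. Of the 45, 31 have at least 1 pseudogene named after them in the RefSeq table, COX6C having 18. Among the 11 tested members with none, 7 fell (63.6%, against 48.2% of all tested genes), 3 rose (27.3%, against 35.1%) and 1 did not pass, with a median log2 difference of -0.58.

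Other genes that work with the complexes were counted in the same way. Of 44 assembly factors of complexes II to V, 25 fell (56.8%, against 48.2% of all tested genes), 9 rose (20.5%, against 35.1%) and 10 did not pass (median -0.33, against -0.13). UQCC2, a complex III assembly factor, had the largest fall, at 34.6, 34.8 and 37.4 TPM in sphere libraries, against 112, 102 and 115 TPM in parental libraries (a log2 difference of -1.60 ± 0.06 (SE, adjusted p = 2.8e-09)). SCO2, which delivers copper to complex IV, had the largest rise, at 42.6, 39.98 and 46.2 TPM in sphere libraries, against 16.2, 12.8 and 4.48 TPM in parental libraries (a log2 difference of 2.01 ± 0.34 (SE, adjusted p = 3.2e-04)). Its parental values were spread widely, and SCO2 overlaps the gene TYMP, so its reads are uncertain. Of 5 companions (CYC1, CYCS, NDUFA4, NDUFA4L2 and HIGD1A), CYC1 rose (20%, against 35.1% of all tested genes). The other 4 fell (80%, against 48.2%). NDUFA4, which is a subunit of complex IV despite its name, averaged 126 ± 3.07 TPM in sphere libraries and 243 ± 9.05 TPM in parental libraries, and NDUFA4L2, a low-abundance relative, averaged 0.37 ± 0.24 TPM in sphere libraries and 3.91 ± 1.29 TPM in parental libraries (SD, n = 3 each) with the largest fall of the 5.

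Of 17 citric acid cycle and pyruvate dehydrogenase genes, 13 fell (76.5%, against 48.2% of all tested genes), OGDH rose and 3 did not pass (median -0.74). FH, the fumarase that uses the product of complex II, fell most, at 70.8, 66.5 and 71.6 TPM in sphere libraries, against 167, 169 and 169 TPM in parental libraries (a log2 difference of -1.26 ± 0.04 (SE, adjusted p = 1.8e-09)), and OGDH, of the oxoglutarate dehydrogenase, averaged 138 ± 4.03 TPM in sphere libraries and 108 ± 1.74 TPM in parental libraries. Of 8 carriers and pores, 6 fell (75%), SLC25A6 rose and VDAC2 did not pass (median -0.96). UCP2, an inner membrane carrier, fell most, averaging 1.46 ± 0.34 TPM in sphere libraries and 16.3 ± 1.16 TPM in parental libraries. SLC25A6, an ADP/ATP exchanger, averaged 309 ± 3.91 TPM in sphere libraries and 231 ± 15.3 TPM in parental libraries.

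Of 14 regulators of mitochondrial gene expression tested, 7 fell (50%, against 48.2% of all tested genes) and 5 rose (35.7%, against 35.1%). The other 2 did not pass (median -0.24), and the shares were close to those over all tested genes. TFAM, which packages and transcribes mitochondrial DNA, fell most, at 41.2, 39.8 and 34.8 TPM in sphere libraries, against 131, 127 and 117 TPM in parental libraries (a log2 difference of -1.67 ± 0.07 (SE, adjusted p = 8.0e-09)). POLG, the mitochondrial DNA polymerase, rose most, averaging 51.8 ± 2.04 TPM in sphere libraries and 30.6 ± 1.65 TPM in parental libraries. NRF1 averaged 8.62 ± 0.24 TPM in sphere libraries and 13.8 ± 0.61 TPM in parental libraries and fell, GABPA averaged 18.4 ± 1.63 TPM in sphere libraries and 18.4 ± 0.88 TPM in parental libraries and did not pass (adjusted p = 0.995), and YY1 averaged 59.0 ± 2.68 TPM in sphere libraries and 36.5 ± 0.89 TPM in parental libraries and rose. PPARGC1A, a coactivator of respiratory genes, was below the filter at no more than 0.74 TPM in any library.

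Genes taken by their complex I symbols and the mitochondrial ribosomal protein genes gave similar shares. The complex I symbols include NDUFA4L2, counted above as a companion, and the read-through gene NDUFC2-KCTD14. Their log2 differences of -1.82 and -2.45 were the largest falls of that list. Of the 38 genes with complex I symbols 30 fell (78.9%) and 3 rose (7.9%), with a median of -0.56. Of 78 mitochondrial ribosomal protein genes 62 fell (79.5%) and 3 rose (3.8%), with a median of -0.50. Among all tested genes 48.2% fell and 35.1% rose. The lower level in sphere libraries was thus not shown to be particular to complexes II to V, and the difference between the lists was not tested.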

How the data were processed

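Total RNA of 3 sphere and 3 parental CAL-27 samples was read on a BGISEQ-500 in single-end mode (50 bases), per the labels' protocols. The authors deposited 1 table of TPM for 17110 genes, per the file headers. HISAT and Bowtie2 are named, with no version, per the submitters' processing notes, as is GRCm38.p6, a mouse build, although the gene IDs are human. The build behind the values is thus unclear. How reads were counted, with which annotation, RNA selection and strand setting, was not given in the sources used here. Overlapping genes and close copies are therefore uncertain. Columns named Control were taken as parental, the only other group.

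Genes with a mean of at least 1 TPM (12261) entered limma 3.58.1 (R 4.3.3) as log2(TPM + 1), with a mean-variance trend, two-sided p-values, Benjamini-Hochberg adjustment over all tested genes and 4 residual degrees of freedom (prior: 5.26 at the median), and the procedure was tested on simulated data. No test was made of sums, ratios, neighbour medians or motif shares. Sums, neighbours and motifs were computed in Python 3.11.15 with RefSeq tables of GRCh38.p14 (symbols of all 45 members matched by Entrez ID). The members and lists were chosen with earlier results of these data known. Values per library are given, by rule, for the 3 largest rises and falls of each complex, isoform pairs and members that did not pass. SCO2, UQCC2, FH, OGDH, UCP2, SLC25A6, TFAM, POLG, CYC1 and NDUFA4L2 are the largest rise and fall of their lists. CYCS, NDUFA4, HIGD1A, VDAC2, NRF1, GABPA, YY1, PPARGC1A and other members were named after their values were seen. Of the listed cell type markers 1 is not reported here and 2 others were not analysed here.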

Additional observations from a re-analysis of the deposited data

How the results depend on the processing

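Results were recomputed with library weights, without the variance trend, with a robust prior, with the replicate number as a block, with 0.1 as pseudocount, with median-of-ratios scaling, with the filter dropped or raised to 5 TPM, and after omitting each library in turn. The members that fell numbered 32 to 35 and those that rose 4 to 6 over all of them. With 1 library left out, 34 or 35 fell and 5 rose, the median of the members was -0.61 to -0.56, and 9832 to 10044 of all tested genes passed (10221 as reported). Median-of-ratios scaling moved the median of the members to -0.41 and that of all tested genes to 0.030, and the summed log2 ratios of complexes II, III, IV and V to -0.79, -0.69, -0.37 and -0.32 (as reported -0.96, -0.87, -0.54 and -0.50). These shifts follow from the scaling itself. No filter moved the median of all tested genes to -0.048, since more low genes entered. Signs turned with median-of-ratios scaling for UQCRC2 (0.010), COX7A2 (0.035), ATP5F1D (0.13) and ATP5F1E (0.16), of which UQCRC2 alone had passed. With 1 library left out ATP5F1D ranged from -0.13 to 0.048 and ATP5F1E from -0.041 to 0.028. The cause was not tested. Deviations from the group mean correlated at 0.018, -0.018 and -0.055 between libraries of the same number, so the numbers were not taken as pairs. With the replicate block 10192 genes passed, 35 members fell and 5 rose, COX7A2 being the added one (adjusted p = 0.0128). Depth is unknown, and 3 libraries per group limit the precision of small differences such as that of COX7A2.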
